A study of Mus musculus with 4 samples.

Results

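The interferon-stimulated genes and interferon-inducible GTPases were examined in AML c-Kit+ cells with and without overexpression of Suv39h1, the histone methyltransferase that places di- and trimethylation on lysine 9 of histone H3. They are 45 genes, all of them found by Ensembl identifier among the 23552 genes of the FPKM table (fragments scaled to the length of the transcript and to the depth of the library). The list was written by gene function, with earlier results of these data known. It holds 20 antiviral effectors of the type I response, 3 nucleic acid sensors and 3 interferon-induced transmembrane (IFITM) proteins. The others are 5 transcription factors and feedback regulators, 10 GTPases of the interferon-gamma response and 4 receptor chains. RNA was profiled in 4 libraries of RNA-seq batch 2, with 2 from control mice (replicates 3 and 4) and 2 from SUV-OE mice (replicates 2 and 3). Both groups were C57BL/6 mice with acute myeloid leukemia induced by the MLL-AF9 fusion, and in both the cells were c-Kit+ leukemic cells enriched from the bone marrow of moribund animals. The control cells overexpressed control-eGFP and the SUV-OE cells overexpressed Suv39h1 with eGFP, in each case from a lentivirus. Sorted eGFP+ cells had been transplanted into sublethally irradiated recipients, which keep cells of their own. The mice were females, 8 weeks old when used. Nothing in the labels says whether each library came from a separate mouse, so the p-values measure the spread between these libraries only.

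The level of Suv39h1 was 12.4 FPKM in both control libraries and 75.3 and 81.2 FPKM in the SUV-OE libraries, a difference of 2.56 ± 0.11 (SE) on the log2(FPKM + 1) scale (limma, adjusted p = 0.00866). Kit, which encodes the receptor used for the enrichment, was present in every library, at 20.4 and 19.2 FPKM in control and 28.6 and 25.4 FPKM in SUV-OE. The reads behind the FPKM values could be recovered from their steps and came to between 19903032 and 23347786 per library. At this depth 3 reads on a gene with 1 kb of exon correspond to between 0.154 and 0.178 FPKM.

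Type I interferons bind the receptor chains Ifnar1 and Ifnar2, which activate the kinases Jak1 and Tyk2. Stat2 and Irf9 are then part of the complex ISGF3, which binds the interferon-stimulated response element (ISRE). Interferon gamma binds Ifngr1 and Ifngr2, and its signal reaches the gamma-activated site (GAS), through which Irf1 and the GTPases are induced. The guanylate-binding proteins (GBPs) and the immunity-related GTPases (IRGs) act on the membranes around intracellular pathogens, and many of them respond to both kinds of interferon.

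Promoter windows running from 250 bases before to 50 bases after the transcription start were taken from RefSeq (GRCm38.p6). The windows of 35 of the 45 genes were searched, and the GTPases Gbp4, Gbp6 and Iigp1 were not among them. An ISRE-like match (GAAA, any 2 bases, GAAA, on either strand) was present in 20 of these 35 genes, or 57.1%, compared with 3.99% of the 27025 genes with a window. A GAS-like match (TTCNNNGAA, which reads the same on both strands) was present in 13 of the 35, or 37.1%, compared with 9.55% of all genes. Among the promoters searched, the ISRE-like match was found in 7 of the 7 of GTPases, 7 of the 14 of effectors and 0 of the 4 of receptors. The bases before the start are shown for 3 GTPases and 2 effectors whose values in every library are given, with ISRE-like and GAS-like matches in capitals, 5′ to 3′ on the strand of the gene.
Gbp2 chr3:142620413-142620662 plus strand: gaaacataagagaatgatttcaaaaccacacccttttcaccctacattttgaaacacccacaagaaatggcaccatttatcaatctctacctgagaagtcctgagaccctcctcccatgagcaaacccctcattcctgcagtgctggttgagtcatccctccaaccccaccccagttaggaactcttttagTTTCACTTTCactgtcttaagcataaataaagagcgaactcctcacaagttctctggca
Gbp5 chr3:142496684-142496933 plus strand: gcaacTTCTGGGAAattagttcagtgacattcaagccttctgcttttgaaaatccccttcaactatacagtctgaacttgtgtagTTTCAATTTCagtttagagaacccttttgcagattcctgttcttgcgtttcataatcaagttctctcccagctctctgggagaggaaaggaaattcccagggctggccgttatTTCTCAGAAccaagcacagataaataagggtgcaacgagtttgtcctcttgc
Irgm2 chr11:58214727-58214976 plus strand: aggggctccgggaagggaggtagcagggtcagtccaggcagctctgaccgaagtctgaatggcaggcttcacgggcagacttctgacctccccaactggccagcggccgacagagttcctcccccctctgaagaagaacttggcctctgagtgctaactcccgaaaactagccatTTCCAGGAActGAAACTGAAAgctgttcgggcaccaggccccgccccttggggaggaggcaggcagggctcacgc
Isg15 chr4:156200819-156201068 minus strand: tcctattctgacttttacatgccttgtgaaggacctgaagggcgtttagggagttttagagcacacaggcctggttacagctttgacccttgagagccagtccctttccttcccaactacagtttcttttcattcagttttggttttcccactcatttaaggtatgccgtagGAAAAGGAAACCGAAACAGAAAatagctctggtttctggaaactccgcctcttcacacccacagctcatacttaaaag
Rsad2 chr12:26456453-26456702 minus strand: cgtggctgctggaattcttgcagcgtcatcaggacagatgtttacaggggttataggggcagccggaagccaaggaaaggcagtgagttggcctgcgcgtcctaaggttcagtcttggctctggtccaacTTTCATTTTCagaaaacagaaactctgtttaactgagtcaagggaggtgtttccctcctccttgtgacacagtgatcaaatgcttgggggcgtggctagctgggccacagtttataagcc

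In Gbp2 the ISRE-like match began 59 bases before the start. Isg15 held 3 overlapping matches, beginning 78, 72 and 66 bases before the start, and Rsad2 held 1, beginning 120 bases before it. Irgm2 carried a GAS-like match 75 bases before the start directly upstream of its ISRE-like match at 64 bases. Gbp5 had 1 ISRE-like match at 165 bases and 2 GAS-like matches at 245 and 52 bases. Ifitm1, the IFITM gene with the lowest adjusted p, had neither motif in its window, and the matches of Ifitm3 lay in the 50 bases after the start. These matches are letters in a window and no binding was measured. The kit does not mark strand, and 25 of the 45 genes have another of them within 1 Mb. These include Gbp2, Gbp3, Gbp5 and Gbp7 on chromosome 3, the 3 Ifit genes on chromosome 19, and the 3 Ifitm genes with Irf7 on chromosome 7.

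Higher levels in SUV-OE than in control were the common pattern among these genes, but no single gene passed the thresholds of the main test. For 34 of the 45 genes the lower SUV-OE library was above the higher control library, a relation that 25.7% of all genes showed. Both lay below for 3 genes (Ifit2, Socs1 and Ifngr1), compared with 21.9% of all genes, and the groups overlapped for the other 8. Limma tested the 38 whose mean over the libraries reached 0.5 FPKM, and of these 27 lay above and 3 below, compared with 25.4% and 28.4% of all tested genes. The median log2 fold change of the 38 was 0.42, and that of all tested genes was -0.02. In bulk RNA, fewer cells that express a gene and less RNA of it per cell cannot be told apart.

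A call needed an adjusted p under 0.05 together with a log2 fold change of 1 or more in either direction. Limma called 0 of the 38 genes, where 1.22% of all 13736 tested genes were called (0.815% as higher and 0.408% as lower). Their adjusted p-values ran from 0.0631 to 0.920. At an unadjusted p under 0.05, 18 were higher and 1 was lower in SUV-OE, compared with 10.3% and 10.4% of all tested genes. In all, 8 genes stood at an adjusted p under 0.1, all higher in SUV-OE (Oas3, Rsad2, Parp14, Ifitm1, Irf7, Gbp2, Gbp7 and Irgm2), compared with 3.15% of all tested genes. A second test, limma-voom on the recovered reads, has no pseudocount of 1 to shrink the change of low genes. It tested 43 of the 45 and called 10 as higher and 0 as lower, compared with 3.61% and 1.11% of all 14275 genes it tested (4.72% in all). At any fold 12 were higher, compared with 4.4%. The 10 were Oas3, Oasl2, Rsad2, Parp14, Ifitm1, Ifitm3, Gbp2, Gbp5, Irgm2 and Iigp1. Iigp1 reached the mean of 10 reads only through the SUV-OE libraries, and 9 of the 39 genes with a control mean of 10 reads were called. The count of 10 depended on single libraries, since it was 2 without control replicate 4 and 6 without SUV-OE replicate 3.

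**Figure D1:**
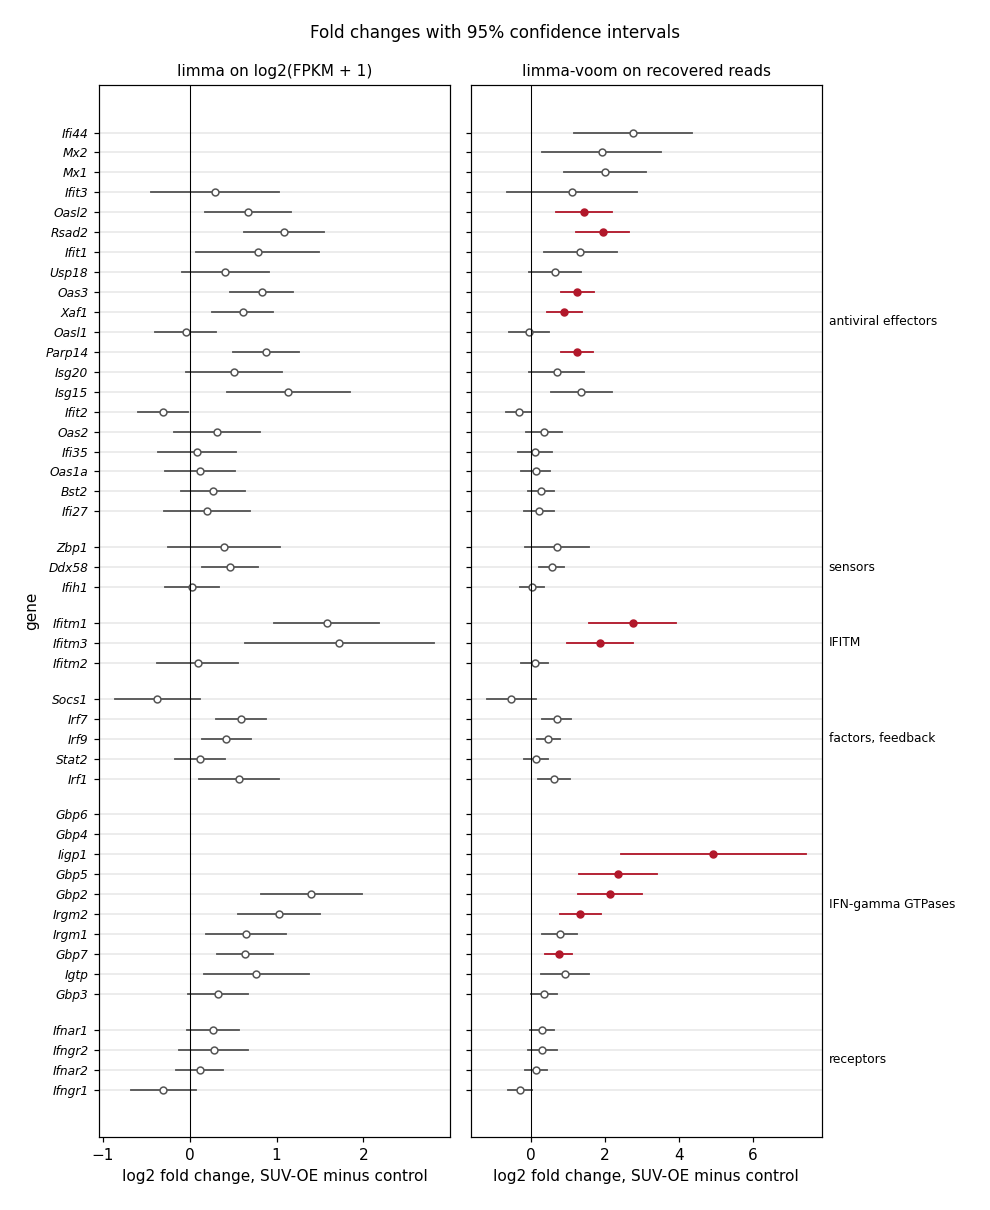
Log2 fold change (SUV-OE minus control) of each gene with its 95% confidence interval, by limma on log2(FPKM + 1) for 38 genes (left) and by limma-voom on recovered reads for 43 genes (right), grouped by role, with filled red points for an adjusted p under 0.05. On the left no point is filled and all but Ifit2, Socs1, Oasl1 and Ifngr1 lie to the right of 0, up to 1.72 for Ifitm3, and on the right 12 points are filled.

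The receptor chains, which set whether a cell can respond, differed little between the groups. Ifnar1 stood at 10.4 and 11.7 FPKM in control and at 13.8 and 13.1 FPKM in SUV-OE (log2 fold change 0.26 ± 0.12, limma adjusted p = 0.287). Ifnar2 was at 19.1 and 19.2 FPKM against 20.9 and 20.8 FPKM, and Ifngr2 at 9.88 and 12.9 FPKM against 13.9 and 13.8 FPKM. For these 3 chains the groups did not overlap and SUV-OE was higher (25.7% of all genes lay above in this way and 21.9% below). Ifngr1, the ligand-binding chain for interferon gamma, had the highest level of the 45 genes per length in control and lay the other way, at 197 FPKM in both control libraries and 155 and 163 FPKM in SUV-OE (log2 fold change -0.31 ± 0.14, limma adjusted p = 0.308).

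Among the transcription factors, Irf7, the amplifier of type I interferon production, showed the closest agreement within each group. Its levels were 4.54 and 4.45 FPKM in control and 7.20 and 7.38 FPKM in SUV-OE, a log2 fold change of 0.59 ± 0.11 (limma, adjusted p = 0.0920), and its exons overlap those of Phrf1 on the opposite strand. Irf9, the DNA-binding part of ISGF3, was at 9.92 and 9.44 FPKM against 13.0 and 13.6 FPKM (0.42 ± 0.11, limma adjusted p = 0.143), with exons that overlap Rnf31. Irf1 was at 9.24 and 11.2 FPKM in control and 13.6 and 17.8 FPKM in SUV-OE (0.57 ± 0.18, limma adjusted p = 0.184). Both SUV-OE libraries lay above both controls for each of these 3 factors, compared with 25.7% of all genes.

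Stat2, a part of ISGF3, differed less, at 11.7 and 11.1 FPKM against 12.9 and 12.1 FPKM (0.12 ± 0.11, limma adjusted p = 0.580). Socs1, the feedback inhibitor of the Jak kinases, was lower in SUV-OE, with 3.41 and 2.38 FPKM in control and 1.80 and 2.17 FPKM in SUV-OE (-0.37 ± 0.19, limma adjusted p = 0.336), and the log2 fold change was -0.18 without control replicate 3 and -0.57 without control replicate 4. None of the 5 reached a log2 fold change of 1.

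The 20 antiviral effectors were unevenly shifted. Both SUV-OE libraries lay above both controls for 14 (compared with 25.7% of all genes), below for 1 (compared with 21.9%) and overlapped for 5, and the median log2 fold change of the 17 tested was 0.41. Isg15 (chr4:156199424-156200818), a ubiquitin-like protein that is joined to other proteins, had 2.72 and 5.02 FPKM in control and 8.27 and 10.6 FPKM in SUV-OE. Its log2 fold change of 1.13 ± 0.27 was the largest of the effectors tested on the log2(FPKM + 1) scale, with a limma adjusted p of 0.131. The controls differed from each other as well, and without control replicate 3 Isg15 was at 0.79, below Rsad2 at 0.92. On the recovered reads Isg15 was at 1.36, below Rsad2 (1.94) and Oasl2 (1.44). Rsad2 (viperin, chr12:26442746-26456452), which makes a chain-terminating nucleotide, was at 0.523 and 0.917 FPKM in control and 2.57 and 2.69 FPKM in SUV-OE. The difference was 1.09 ± 0.18 on the log2(FPKM + 1) scale (limma, adjusted p = 0.0756), and 1.94 ± 0.30 on the recovered reads (limma-voom, adjusted p = 0.0174).

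The oligoadenylate synthetases and their relatives, whose active members switch on RNase L when they meet double-stranded RNA, differed in how far they were shifted. Oas3 had 1.35 and 1.17 FPKM in control and 3.07 and 2.94 FPKM in SUV-OE (0.83 ± 0.14, limma adjusted p = 0.0782), and Oasl2 had 0.444 and 0.651 FPKM against 1.21 and 1.72 FPKM (0.67 ± 0.19, limma adjusted p = 0.164). Both passed limma-voom, with adjusted p-values of 0.0147 and 0.0456. Oas1a, the most abundant of the 5 per length, was at 26.5 and 29.9 FPKM in control and 27.4 and 34.2 FPKM in SUV-OE, so that the groups overlapped. Oasl1 was at 2.88 and 2.52 FPKM against 2.51 and 2.65 FPKM (-0.05, limma adjusted p = 0.871). Oas2 stood at 7.65 and 8.63 FPKM in control and at 8.63 and 12.3 FPKM in SUV-OE (0.31, limma adjusted p = 0.414). Its log2 fold change was 0.08 without SUV-OE replicate 3 and 0.55 without SUV-OE replicate 2. Oas1a, Oas2 and Oas3 are neighbours on chromosome 5, and only Oas3 of them passed limma-voom; the difference between the 3 was not tested.

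The Ifit genes, whose proteins bind foreign RNA ends, also diverged. Ifit1 was at 0.677 and 1.74 FPKM in control and 2.44 and 2.94 FPKM in SUV-OE (0.78 ± 0.27, limma adjusted p = 0.214). Without control replicate 3 its log2 fold change was 0.43, and by limma-voom it was 1.33. Ifit3 overlapped between the groups, at 0.147 and 0.781 FPKM against 0.549 and 0.967 FPKM. Ifit2 went the other way, with 10.3 and 9.60 FPKM in control and 7.84 and 7.88 FPKM in SUV-OE. This log2 fold change of -0.31 ± 0.11 had a 95% interval from -0.60 to -0.02 and a limma adjusted p of 0.222. Ifit2 was the 1 tested gene of the 38 that was lower at an unadjusted p under 0.05.

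Parp14, an ADP-ribosyltransferase, was at 1.57 and 1.61 FPKM in control and 3.42 and 4.15 FPKM in SUV-OE (0.88 ± 0.15, limma adjusted p = 0.0775; limma-voom adjusted p = 0.0132). Xaf1, a pro-apoptotic antagonist of XIAP, was at 1.57 and 1.55 FPKM against 3.05 and 2.76 FPKM (0.61 ± 0.14, limma adjusted p = 0.116), and it passed the adjusted p of limma-voom (0.0477) below a log2 fold change of 1. Usp18, which removes Isg15 from proteins and restrains the type I receptor, was at 1.27 and 2.06 FPKM in control and 2.50 FPKM in both SUV-OE libraries (0.41 ± 0.19, limma adjusted p = 0.310). This log2 fold change was 0.19 without control replicate 3 and 0.62 without control replicate 4. For Parp14, Xaf1 and Usp18 both SUV-OE libraries lay above both controls, compared with 25.7% of all genes.

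Other effectors were high in every library. Ifi27 lay between 119 and 164 FPKM over the 4 libraries and Bst2, the tether of budding virions, between 53.8 and 73.5 FPKM, with log2 fold changes of 0.20 ± 0.19 and 0.26 ± 0.14. Without control replicate 3 these were 0.002 and 0.16, and that of Ifi27 was 0.40 without control replicate 4. Isg20 was at 1.88 and 2.39 FPKM in control and at 2.76 and 4.23 FPKM in SUV-OE (0.51 ± 0.21, limma adjusted p = 0.271), and at a log2 fold change of 0.27 without SUV-OE replicate 3. Ifi35 overlapped at between 11.9 and 16.1 FPKM. At the low end, 3 effectors fell under the mean of 0.5 FPKM and are given by their reads. Mx1, a gene of the dynamin-like GTPase family, had 8 and 10 control reads against 43 and 30. Mx2 had 3 and 9 reads against 15 and 27, and Ifi44 had 3 and 6 reads against 21 and 44. For all 3 both SUV-OE libraries lay above both controls (25.7% of all genes did), and the limma-voom adjusted p-values were 0.0551, 0.147 and 0.0610.

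Of the nucleic acid sensors, only Ddx58 (RIG-I, the sensor of RNA ends) separated the groups, at 4.86 and 4.67 FPKM in control and 6.53 and 7.44 FPKM in SUV-OE (0.47 ± 0.12, limma adjusted p = 0.149). Its relative Ifih1 (MDA5, the sensor of long double-stranded RNA) was at 6.78 and 6.05 FPKM against 6.68 and 6.41 FPKM (0.03, limma adjusted p = 0.920). Zbp1, the sensor of Z-form nucleic acid, was at 0.918 and 1.81 FPKM in control and 1.74 and 2.42 FPKM in SUV-OE, with overlapping groups.

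The IFITM proteins sit in membranes and hinder the fusion of enveloped viruses, and among the 38 genes tested on the log2(FPKM + 1) scale they held the largest difference and one of the smallest. Ifitm3 (chr7:141009586-141010770) was at 5.76 and 14.9 FPKM in control and 30.8 and 36.0 FPKM in SUV-OE, a log2 fold change of 1.72 ± 0.42 with a 95% interval from 0.63 to 2.81 (limma, adjusted p = 0.134). The 2 controls lay further apart than the 2 SUV-OE libraries, and without control replicate 3 the log2 fold change was 1.10, below those of Ifitm1 (1.31) and Gbp2 (1.56). Ifitm1 (chr7:140967221-140969825) was at 0.329 and 0.921 FPKM in control and 3.40 and 4.16 FPKM in SUV-OE, with a log2 fold change of 1.58 ± 0.23, a 95% interval from 0.98 to 2.18 and an adjusted p of 0.0631, the lowest of the 38 (limma).

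Ifitm2, in the same cluster, was far higher per length than its neighbours and overlapped between the groups, at 154 and 196 FPKM in control and 183 and 188 FPKM in SUV-OE (0.09 ± 0.18, limma adjusted p = 0.806). On the recovered reads, of which Ifitm1 had 7 and 17 in control against 66 and 81, Ifitm1 and Ifitm3 passed, with log2 fold changes of 2.75 ± 0.50 and 1.87 ± 0.38 and limma-voom adjusted p-values of 0.0269 and 0.0357. The Ifitm genes are alike in sequence and how reads shared between them were counted is not given in the sources used here.

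**Figure D2:**
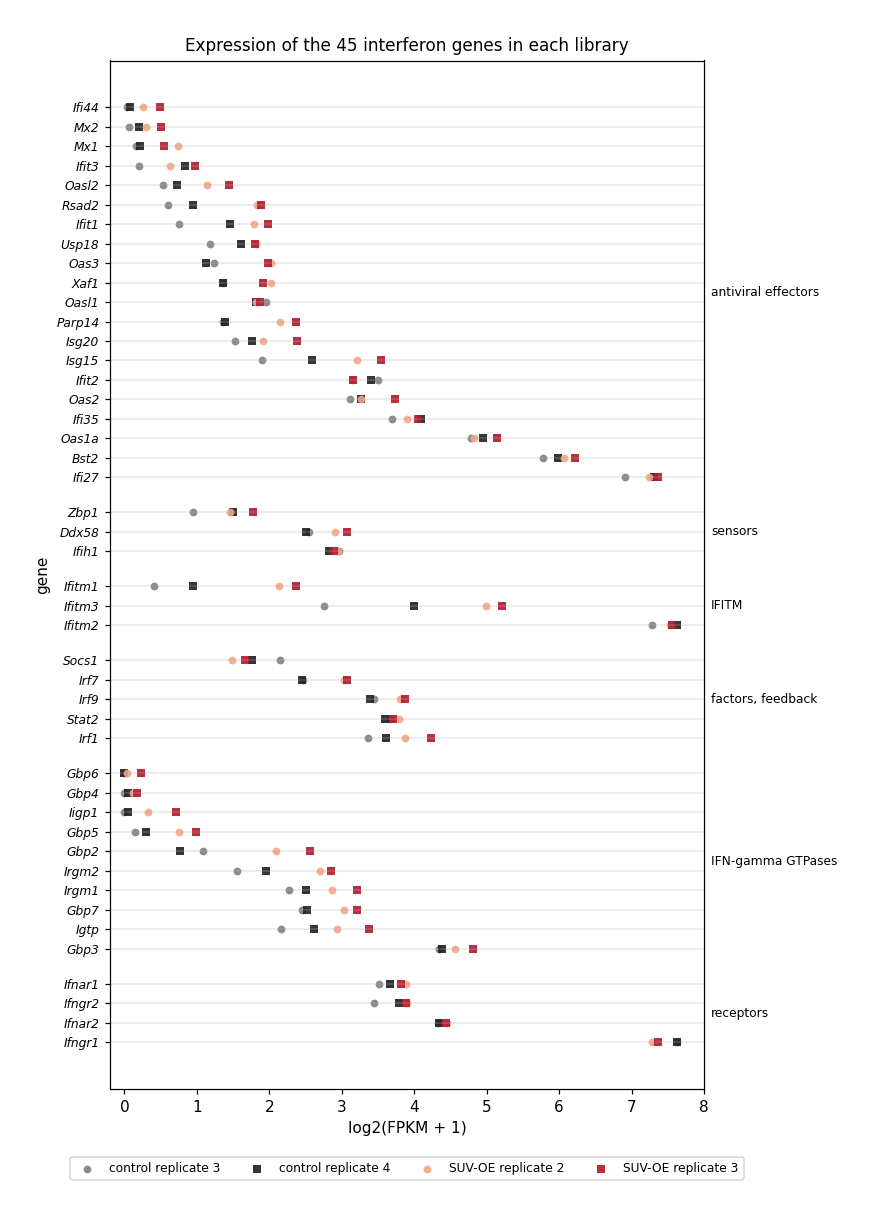
Level of each of the 45 genes in each of the 4 libraries on a log2(FPKM + 1) axis, grouped by role, with control and SUV-OE libraries in different colours. Ifitm3 runs from 5.76 FPKM in control replicate 3 to 36.0 FPKM in SUV-OE replicate 3, while Ifitm2 and Ifngr1 lie at 154 FPKM or higher in every library.

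Among the 6 role groups, only the GTPases had every member higher in both SUV-OE libraries than in both controls (10 of 10, where 25.7% of all genes did). Only 6 of the 10 reached the mean of 0.5 FPKM. Gbp2 (chr3:142620602-142638008) was at 1.12 and 0.707 FPKM in control and 3.27 and 4.90 FPKM in SUV-OE, with a log2 fold change of 1.40 ± 0.22 (limma, adjusted p = 0.0718) and of 2.14 ± 0.37 on the recovered reads (limma-voom, adjusted p = 0.0220). Here the replicates of each group lay closer together than the groups did.

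Gbp7 was at 4.49 and 4.71 FPKM in control and 7.19 and 8.22 FPKM in SUV-OE (0.63 ± 0.12, limma adjusted p = 0.0973; limma-voom adjusted p = 0.0393). Gbp3, the most abundant GBP per length, was at 19.2 and 19.8 FPKM against 22.6 and 27.0 FPKM (0.33 ± 0.13, limma adjusted p = 0.260). Of these 3 neighbours on chromosome 3, Gbp2 had the lowest level per length in every library and the largest difference, and Gbp3 the highest level and the smallest difference.

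Among the IRGs, Irgm2 (chr11:58199618-58222782), a regulatory member, was at 1.94 and 2.87 FPKM in control and 5.51 and 6.22 FPKM in SUV-OE (1.02 ± 0.18, limma adjusted p = 0.0840; limma-voom adjusted p = 0.0246). Igtp (Irgm3), whose exons overlap those of Irgm2 on the same strand, was at 3.48 and 5.16 FPKM against 6.66 and 9.37 FPKM (0.76 ± 0.23, limma adjusted p = 0.178), and the reads of these 2 genes may not be fully separated. Irgm1, on another part of chromosome 11, was at 3.80 and 4.68 FPKM against 6.26 and 8.24 FPKM (0.65 ± 0.18, limma adjusted p = 0.155). All 3 regulatory IRGs had both SUV-OE libraries above both controls, compared with 25.7% of all genes.

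The remaining 4 GTPases were close to the limit of detection in control cells. Gbp5, a GBP that promotes inflammasome assembly, had 14 and 26 control reads against 80 and 115 (log2 fold change 2.36 ± 0.45, limma-voom adjusted p = 0.0303). Iigp1, an effector IRG, had 0 and 4 control reads against 28 and 70, and it entered limma-voom, which called it, only through its SUV-OE reads, so that this call is no support. Gbp4, whose exons overlap those of Gbp8 and Gbp9, had 0 and 4 reads against 11 and 17.

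Gbp6 had 0 reads in both control libraries and 3 and 18 in SUV-OE, which was at least 7.16-fold higher against a floor of 3 reads over the control group. In each of these 4 the SUV-OE libraries were the higher ones, and SUV-OE replicate 3 was above replicate 2 (25.7% and 45.4% of all genes). Gbp4 and Gbp6 were too low for either test.

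Effectors of the type I response and the GTPases of the interferon-gamma response were then set side by side. On the log2(FPKM + 1) scale the median log2 fold change was 0.36 for all 20 effectors and 0.64 for all 10 GTPases (0.41 and 0.71 for the 17 and 6 that limma tested). With a pseudocount of 0.1 the medians of the same 20 and 10 genes were 0.84 and 0.89. On the recovered reads they were 1.0 for 20 effectors and 1.12 for the 8 GTPases that limma-voom tested, which had a median of 0.64 on the log2(FPKM + 1) scale. Of the genes limma-voom tested, Mx1, Mx2, Ifi44 and Iigp1 reached its mean of 10 reads only through the SUV-OE libraries, and without them the medians were 0.70 for 17 effectors and 0.91 for 7 GTPases. By limma-voom, 4 of these 17 effectors and 3 of these 7 GTPases were called as higher, compared with 3.61% of all genes. The lists differed in evenness: 14 of 20 effectors against 10 of 10 GTPases separated the groups upward. No test of the difference between the lists was made.

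**Figure D3:**
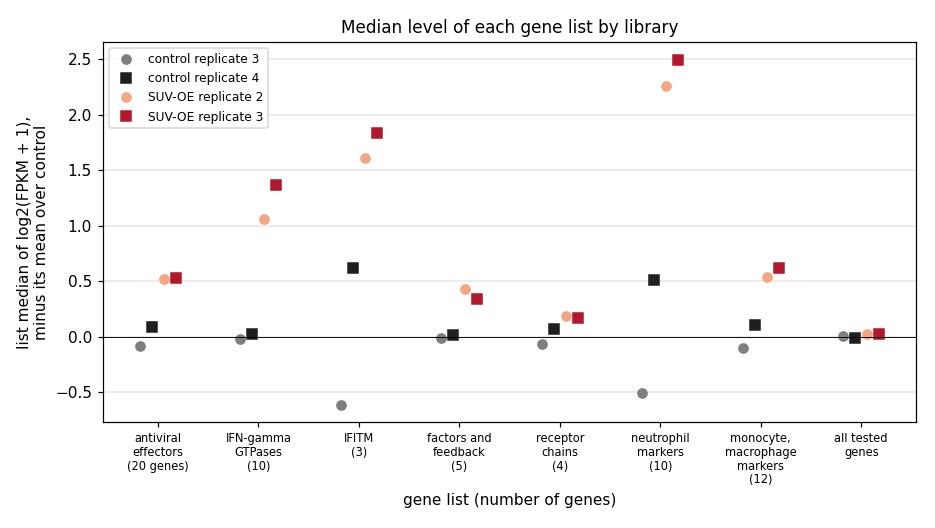
Median of log2(FPKM + 1) over each gene list in each of the 4 libraries, minus the mean of that median over the 2 control libraries, for 5 of the role groups, 2 lists of markers of other cells and all tested genes. The GTPases stand at -0.02 and 0.02 in the controls and at 1.06 and 1.36 in SUV-OE, the effectors at 0.52 and 0.53 in SUV-OE, and the neutrophil markers at 2.26 and 2.50. A shift of a list's median level differs from the median log2 fold change of its genes, which was 0.64 for the 10 GTPases.

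The libraries of a group also differed from each other in these genes. Control replicate 4 was above control replicate 3 for 32 of the 45, where this held for 51.3% of all genes, and SUV-OE replicate 3 was above replicate 2 for 36 of the 45, where it held for 45.4% of all genes. The full order of control 3, control 4, SUV-OE 2 and SUV-OE 3 from low to high was found in 21 of the 45 (10 effectors, 8 GTPases, 2 IFITM genes and 1 factor) and in 5.9% of all genes.

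Markers of other bone marrow cells were also counted, for which the shares of all genes above and below without overlap were 25.7% and 21.9%. All 10 neutrophil markers were higher in both SUV-OE libraries than in both controls, their summed level was 754 and 2392 FPKM in control and 6658 and 8106 FPKM in SUV-OE, and 9 of the 10 followed the library order just given. Ltf (lactoferrin, of the secondary granules) was at 19.9 and 40.3 FPKM against 212 and 241 FPKM (2.95, limma adjusted p = 0.0434). Of 12 monocyte and macrophage markers, 7 lay above and 1 below, with summed levels of 358 and 640 FPKM in control and 354 and 399 FPKM in SUV-OE. Without Ly6c2, which carried most of that sum, the other 11 summed to 77.2 and 95.6 FPKM against 124 and 130.0 FPKM. B-lymphoid markers lay above in 6 of 8, with sums of 18.5 and 27.5 FPKM against 35.8 and 79.4 FPKM. Cd79b made up nearly all of the control sums, and the other 7 summed to 1.11 and 2.51 FPKM against 18.7 and 56.0 FPKM.

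Plasmacytoid dendritic cells, the main makers of type I interferon, also carry Bst2. Their 7 other markers summed to 1.95 and 2.12 FPKM in control and 4.23 and 4.29 FPKM in SUV-OE, with 3 above and 1 below. By log2 fold change, 4 of the 7 were higher and 3 lower in SUV-OE. Siglech was at most 0.0831 FPKM, while Tcf4 was at 0.473 and 0.498 FPKM against 2.15 and 2.01 FPKM (1.05 ± 0.15, limma adjusted p = 0.0585, limma-voom adjusted p = 0.00250). The control mean of Tcf4, 0.485 FPKM, was under the limit of 0.5 FPKM. It entered limma only through the SUV-OE libraries, so that its limma p-value is no support. Of 9 T and NK cell markers, which mark the main makers of interferon gamma, 4 lay above (Cd4, Cd8a, Ncr1 and Klrb1c) and 5 overlapped, with sums of 73.8 and 113 FPKM in control and 77.9 and 84.0 FPKM in SUV-OE. Nkg7 made up nearly all of these sums, at 73.0 and 112 FPKM against 75.5 and 82.3 FPKM. The T cell marker Cd3e was at most 0.0825 FPKM in any library, and Cd8a had 0 reads in both controls and 1 read in each SUV-OE library. The NK cell markers Ncr1 and Klrb1c had 0 and 0, and 3 and 3, control reads against 10 and 12, and 12 and 11. Of 8 erythroid markers 3 lay above, with sums of 14.6 and 139 FPKM in control and 98.2 and 68.5 FPKM in SUV-OE. Endothelial markers lay above in 5 of 6, with sums of 17.1 and 24.1 FPKM against 72.1 and 65.4 FPKM. Nearly all of that was Pecam1, at 16.7 and 23.3 FPKM against 70.3 and 64.1 FPKM (1.71, limma adjusted p = 0.0405), and the other 5 summed to 0.417 and 0.814 FPKM against 1.87 and 1.29 FPKM. The 10 markers of c-Kit+ leukemic progenitors summed to between 2191 and 2696 FPKM over the 4 libraries. Elane carried most of these sums, at 1548 and 1527 FPKM in control and 1385 and 1825 FPKM in SUV-OE. Of the 10, 2 lay above and 4 below without overlap (25.7% and 21.9% of all genes). Limma called 0 of them, with 1 higher and 1 lower at an unadjusted p under 0.05 (10.3% and 10.4% of all tested genes). Limma-voom also called 0, but Flt3 was lower at its adjusted p with a smaller fold than a call needed (-0.92, limma-voom adjusted p = 0.0444). The part of these other cells in the interferon-stimulated genes was not tested.

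Other genes of the pathway were taken from lists written by function, also with earlier results of these data known. Of 86 listed, 77 had a row, 58 were tested and 1 was called by limma (1.22% of all tested genes were). It was Irf8, a myeloid transcription factor induced by interferon gamma. Irf8 was at 5.22 and 5.01 FPKM in control and 11.6 and 11.04 FPKM in SUV-OE (1.01 ± 0.11, limma adjusted p = 0.0405), a call that was lost with no filter on low values and with any 1 library left out. Over the 77, SUV-OE was above without overlap for 48 and below for 8 (25.7% and 21.9% of all genes). Limma-voom called 5 as higher (Irf8, Irf4, Ifi47, Gvin1 and Nlrc5) and 0 as lower, compared with 3.61% and 1.11% of all genes.

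The kinases had log2 fold changes of 0.25 for Jak1, 0.14 for Jak2 and 0.11 for Tyk2 (limma adjusted p = 0.305, 0.586 and 0.719). Ifi47, a further IRG, was at 3.19 and 3.89 FPKM against 8.97 and 13.0 FPKM (1.38 ± 0.20, limma adjusted p = 0.0636). Of 9 interferon genes listed, 2 had a row and the others were not analysed here. Ifng had 0 reads in both controls and 1 read in each SUV-OE library, and Ifnk had 0 and 3 control reads against 0 and 4, so that a difference in either was not detectable at this depth.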

How the data were processed

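RNA was measured in 4 libraries, 2 control and 2 SUV-OE, of sequencing batch 2. Per the labels, the authors used the TruSeq RNA v2 kit, CASAVA 1.8, TopHat2 and mm10. Each gene has 1 FPKM value in each library in the table the authors deposited. Their methods name Cufflinks for the FPKM, and the annotation release is not given in the sources used here. Gene symbols and exon lengths came from GENCODE M21, in which 23438 of 23552 identifiers were found.

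log2(FPKM + 1) was compared with limma 3.58.1 (R 4.3.3, intensity trend, group as the only term) over the 13736 genes whose mean reached 0.5 FPKM, with Benjamini-Hochberg adjustment over all of them. A pseudocount of 1 understates the change of low genes. Calls needed an adjusted p under 0.05 together with a log2 fold change of 1 or more in either direction. For 78.5% of genes the FPKM steps gave whole reads (tolerance 0.01) at the M21 exon length and for 4897 genes at another length, found by search. Another 43 genes, with 0.0444% of reads, were rounded, and 114 with no M21 entry had no reads recovered. Limma-voom on these reads (mean of at least 10) was an alternative test, beside other pseudocounts, filters, scalings and left-out libraries. Intervals at 95% and read floors of 3 cover the error they name only. Both tests were run on simulated data with a set spread between libraries (dispersion 0.01) and 200 changed genes. Limma called 97.5% of the changed genes in the right direction and 19 unchanged genes, and limma-voom 99.5% and 3. The changed genes were not low and their changes were large, so this run does not cover low genes or small changes.

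The 45 genes, the role groups and the pathway and marker lists were chosen with earlier results of these data known. Every one of the 45 was counted. Full values were given for the non-overlapping tested genes with the largest fold changes, up to 8 in each direction (8 higher and 3 lower), the factors, the receptor chains and the tested GTPases. Other members were given more briefly, some with test values beyond that rule. Ifi47, Ltf, Pecam1, Ly6c2, Ncr1, Klrb1c, Nkg7, Cd79b, Tcf4, Elane and Flt3 were named after their values were seen. 1 listed pathway gene is not reported here by name.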

Additional observations from a re-analysis of the deposited data

How the results depend on the processing

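With 2 libraries in each group, the number of calls depended on the test. Over all tested genes limma called 168, and the count was 0 with no filter on low values (4177 at an unadjusted p under 0.05), 674 by limma-voom on recovered reads, 342 at an adjusted p under 0.1, and between 0 and 0 with any 1 library left out (1146 to 3895 at an unadjusted p under 0.05). A fit without 1 library assumes that the lone library varies like the other group. For the 45 genes the count of 0 (19 at an unadjusted p under 0.05) became 10 by limma-voom and 4 at an adjusted p under 0.1. The 10 ranged from 2 (without control replicate 4) to 10 with 1 library left out, was 6 without SUV-OE replicate 3, and was 12 with no fold threshold. Of the pathway genes 1 was called, and the count was 0 with no filter (27 at an unadjusted p under 0.05), 5 by limma-voom, 2 at an adjusted p under 0.1 and between 0 and 0 with any 1 library left out, when Irf8 lost its call (7 to 21 at an unadjusted p under 0.05).

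The median log2 fold change of all 20 effectors (0.36) was 0.84 with a pseudocount of 0.1, 0.46 for the 16 whose mean reached 1 FPKM, 1.0 by limma-voom and between 0.23 and 0.55 with 1 library left out. That of the 3 sensors (0.40) was 0.54 with a pseudocount of 0.1, 0.28 after quantile normalization, 0.55 by limma-voom and between 0.12 and 0.55 with 1 library left out. All 10 GTPases (0.64) gave 0.89 with a pseudocount of 0.1, 1.12 by limma-voom (8 genes) and between 0.50 and 0.74 with 1 library left out, and the 4 receptor chains (0.19) between 0.11 and 0.23. The count of 34 genes above in both SUV-OE libraries was between 34 and 40 with 1 library left out, when separation is easier to reach. Of 416 values for the 38 tested genes, 399 kept their direction and side of the threshold, and 10, all by limma-voom, passed an adjusted p of 0.05. The other 7 changed sign with 1 library left out, in genes whose groups overlapped. These left-out values ran from -0.029 to 0.61 for Ifit3, -0.12 to 0.29 for Ifi35, -0.039 to 0.27 for Oas1a, -0.12 to 0.023 for Oasl1, -0.045 to 0.10 for Ifih1 and -0.082 to 0.26 for Ifitm2. Over all alternatives 66 values in 25 genes moved by over 1.5 times, 40 of them with 1 library left out and 15 by limma-voom or with a pseudocount of 0.1. Among the factors, receptors and GTPases these were Gbp3 (0.20 without SUV-OE replicate 3), Ifngr2 (0.10 without control replicate 3, 0.45 without control replicate 4), Stat2 (0.08 without SUV-OE replicate 2), Socs1 (-0.18 without control replicate 3, -0.57 without control replicate 4), Gbp2 (2.14 by limma-voom), and under quantile normalization Ifngr1 (-0.15) and Ifnar2 (0.21). No paired analysis was possible because replicate number 3 is the only one found in both groups. Low read numbers limit Mx1, Mx2, Ifi44, Ifit3, Ifitm1, Gbp4, Gbp5, Gbp6 and Iigp1.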
